A study of Mus musculus with 17 samples.

Results

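The 44 genes described here encode enzymes of glycolysis and lactate formation (17 genes), the pyruvate dehydrogenase complex with its kinases (6), the tricarboxylic acid (TCA) cycle and related dehydrogenases (12), and fatty acid oxidation with ketone body formation (9). They were taken by gene symbol from a table of 22253 genes, and all 44 symbols were present. Their levels were compared between 3 groups of retinal pigment epithelium (RPE) cells.

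The RPE is the pigmented layer behind the photoreceptors, across which glucose passes from the choroid to the retina. RPE cells are known to draw much of their energy from lactate, fatty acids of shed photoreceptor tips and other mitochondrial fuels, and to form ketone bodies, while photoreceptors consume most of the glucose by glycolysis. Glycolysis splits glucose to pyruvate, pyruvate dehydrogenase feeds it to the TCA cycle as acetyl-CoA unless pyruvate dehydrogenase kinases switch the complex off, and beta-oxidation supplies acetyl-CoA from fatty acids.

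All cells came from Serpine3GFP/+ mice on a C57BL6/J background at 2 months, in which a GFP reporter with a terminator sits at the start codon of 1 Serpine3 allele, so that every group carried the same heterozygous insertion. Cells of the dissociated eyecup were picked by hand with a micromanipulator, giving 6 libraries of GFP+ cells (peripheral GFP+-RPE), 5 of GFP-negative cells of the periphery (labelled ctrl periphery, here peripheral GFP- RPE) and 6 of GFP-negative cells of the center (labelled ctrl center, here central GFP- RPE). Each library was a small pool of cells of 1 mouse, or in mouse 1 of a pair of animal numbers given together, and 5 mice gave a library of each group. Totals ran from 9896118 to 22467079 counts per library. Serpine3, whose locus drives the reporter used for picking, had 107 to 576 counts in GFP+ libraries, 0 to 5 in peripheral GFP- libraries and 0 in central ones. Of 14 RPE markers, 13 were above 3 counts in every library, with Rpe65, the retinoid isomerase, at 2993 CPM (counts scaled to library size) or more, while Best1, a chloride channel of the RPE, was at or under that floor in every library.

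The libraries differed in the share of counts from the 13 genes encoded in mitochondrial DNA, none of which is among the 44. This share was 7.95% ± 5.70 (SD, n = 6) in GFP+-RPE, 19.7% ± 6.98 (n = 5) in peripheral GFP- RPE and 29.1% ± 12.2 (n = 6) in central GFP- RPE. GFP+-RPE was lower than the center (2-sided exact permutation test, p = 0.00433, adjusted over 3 comparisons 0.0130) and than the periphery (exact permutation p = 0.0130, adjusted 0.0195), and the periphery did not pass against the center (exact permutation p = 0.165). Because the groups share libraries, the 3 comparisons below are not independent of each other, and since each library is a pool, fewer cells expressing a gene and less RNA per cell cannot be told apart.

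GFP+-RPE and peripheral GFP- RPE both came from the peripheral part of the eyecup, and most members had higher values in the first. The paper finds GFP+ cells mainly in the dorsal periphery, and where in the periphery the GFP- cells lay is not stated. Position within the periphery and GFP therefore cannot be told apart. Of the 44 members, 37 had a higher fitted level in GFP+-RPE, with a median log2 fold change of 0.48, against 0.01 over all 10102 genes tested. The median was 0.50 in glycolysis and lactate (15 of 17 higher), 0.44 in pyruvate dehydrogenase and its kinases (5 of 6), 0.35 in the TCA cycle (10 of 12) and 0.48 in fatty acid oxidation and ketone bodies (7 of 9). No member passed the call used here, an adjusted p under 0.01 with an absolute log2 fold change over 1 in edgeR's quasi-likelihood test, which 0.0396% of all genes passed, and the smallest adjusted p among members was 0.555. At an unadjusted p under 0.05, 9 of 44 members were higher and 0 lower, where 2.75% of all genes tested were higher and 2.83% lower. The members are abundant genes, and among the 1483 genes at or above their median abundance the shares were 10.3% higher and 7.28% lower. DESeq2 called 0 members too, with 11 higher at an unadjusted p under 0.05, and gave Mdh1 an adjusted p of 0.000802 at a log2 fold change of 0.58, under the fold limit.

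**Figure D1:**
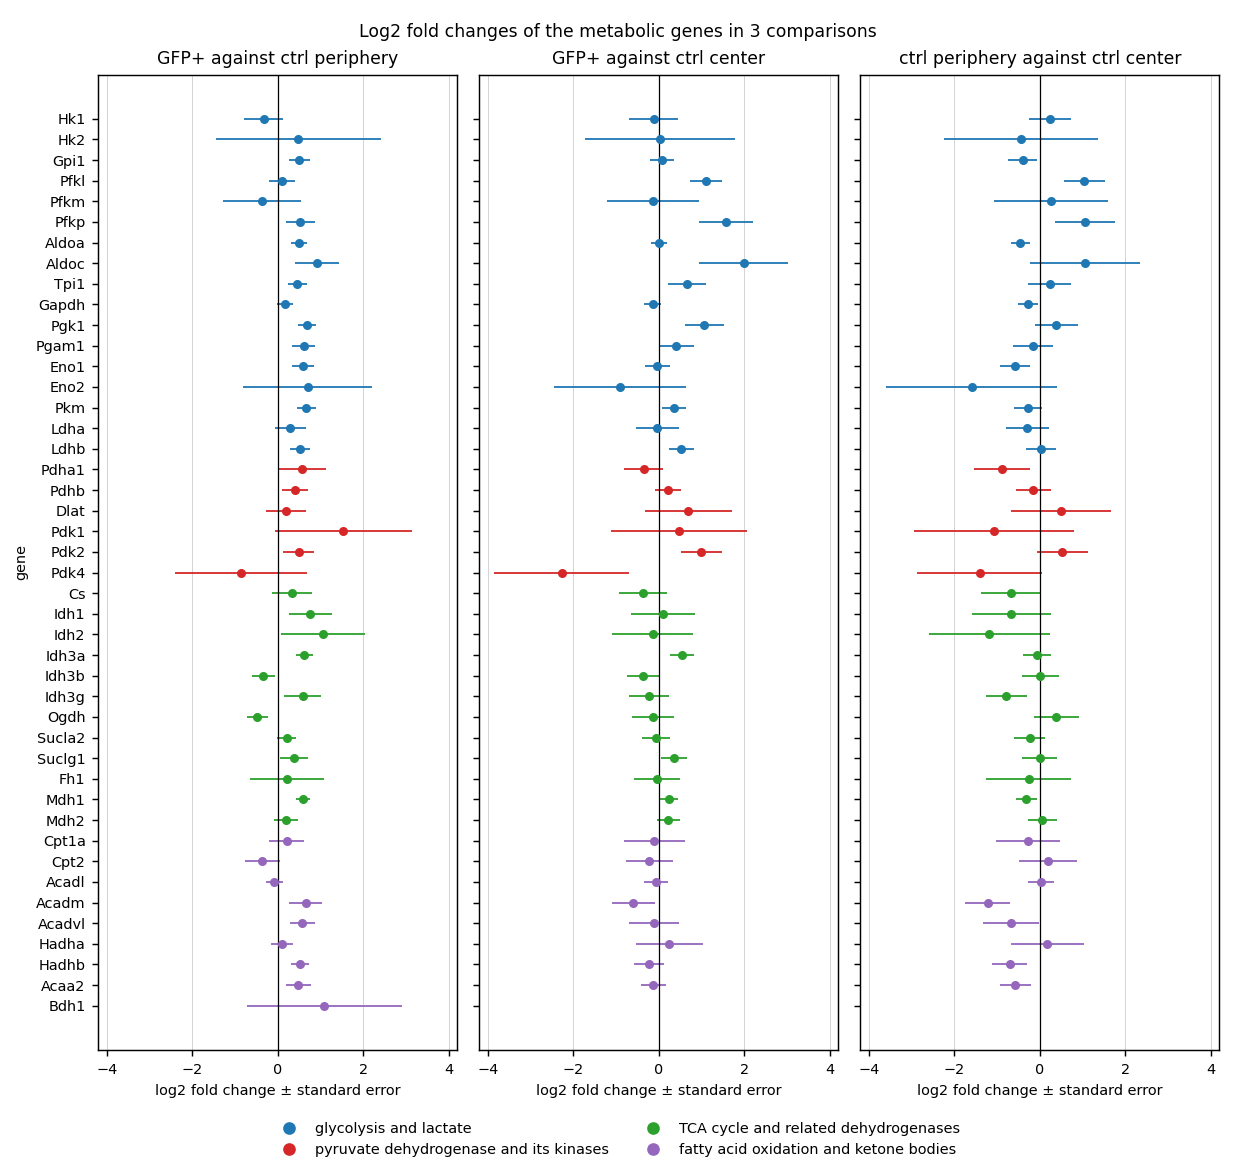
Log2 fold change (x axis) of each of the 44 genes (y axis, colored by pathway) in the 3 comparisons, with bars of ± 1 standard error from edgeR. In the left panel 37 of 44 points lie right of 0, against 21 of 43 in the middle and 16 of 43 in the right panel, where Bdh1 was not tested.

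The summed level of the 12 genes of the TCA cycle and related dehydrogenases did not overlap between the 2 peripheral groups. The cytosolic enzyme gene Mdh1, given below, was the largest single part of this sum, and its own ranges did not overlap either. The sum without Mdh1 was not computed. It was 2605 to 2971 CPM in the 6 GFP+ libraries and 1615, 2017, 2158, 2347 and 2410 CPM in the 5 peripheral GFP- libraries, with 1641 to 3348 CPM in the center. Glycolysis genes summed to 6380 to 8974 CPM in GFP+-RPE, which overlapped the 3502 to 7181 CPM of peripheral GFP- RPE and the 4564 to 8384 CPM of the center. The sums of fatty acid oxidation and ketone body genes overlapped between all 3 groups, at 1021 to 1277, 788 to 1195 and 1051 to 1392 CPM. Over all 44 members, summed CPM overlapped between the 2 peripheral groups, at 10495 to 13595 in GFP+-RPE and 6067 to 11016 in peripheral GFP- RPE. As a share of the counts that remain once the mitochondrially encoded genes are left out, the members took 1.38 to 1.62% in GFP+-RPE. This share was 0.819 to 1.25% in peripheral GFP- RPE and 0.803 to 1.53% in central GFP- RPE, so only on the share did the 2 peripheral groups not overlap. With those mitochondrial genes left out before scaling, the count of members at an unadjusted p under 0.05 was 9 again, and the same 9.

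**Figure D2:**
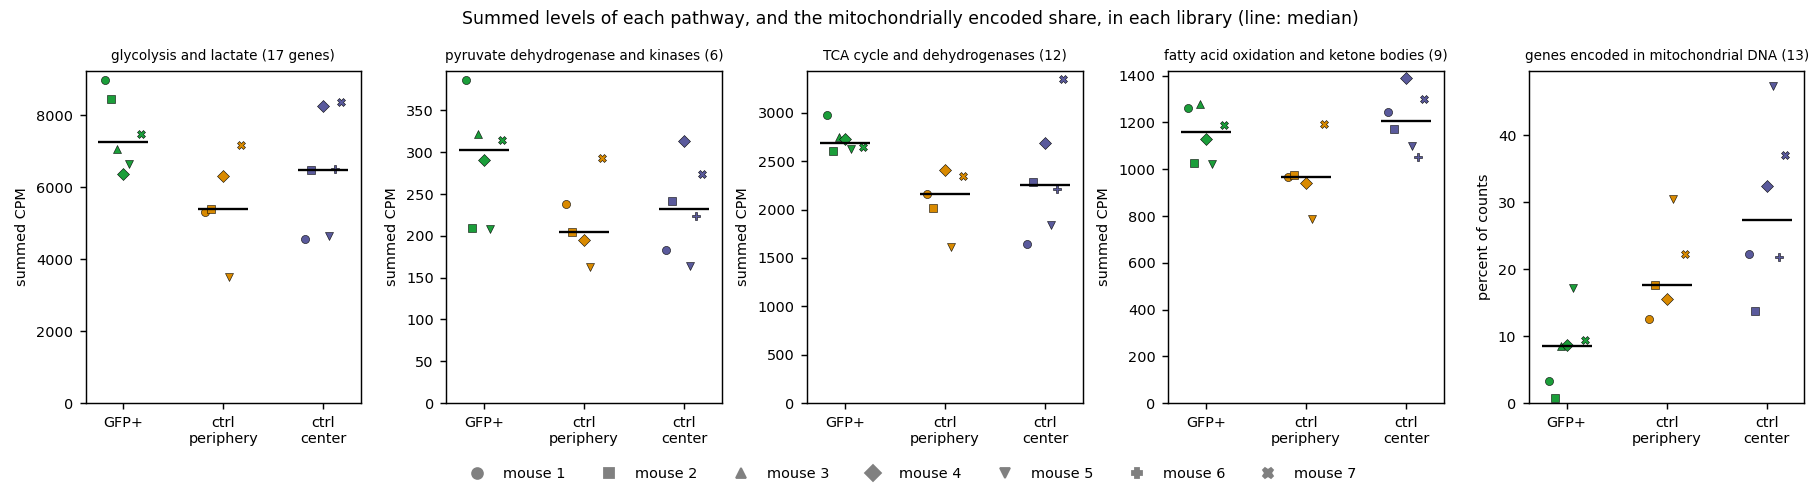
Summed CPM of the genes of each pathway, and at the right the percent of all counts from 13 mitochondrially encoded genes, in each of 17 libraries by group; marker shapes are mice and lines are group medians. TCA cycle sums of GFP+-RPE (2605 to 2971) lie above those of the ctrl periphery (1615 to 2410), while the central libraries (1641 to 3348) span both. Mdh1 is the largest single part of these sums.

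Of the 9 members with an unadjusted p under 0.05, 6 were glycolysis and lactate genes. Pgk1 (phosphoglycerate kinase, the first step that returns ATP) was at 245 to 440.3 CPM (median 382) in GFP+-RPE. In peripheral GFP- RPE it was at 142, 226, 236, 263 and 301 CPM. The highest peripheral GFP- library lay above the lowest GFP+ library only, and the fitted difference was 0.69 ± 0.22 (log2 ± SE), unadjusted p = 0.00574, adjusted p = 0.610, higher in GFP+ cells of 5 of 5 mice. Pkm (pyruvate kinase, which forms pyruvate) was at 358 to 581 CPM (median 485) in GFP+-RPE and 185, 298, 320.0, 329.6 and 413 CPM in peripheral GFP- RPE. The groups overlapped by 1 peripheral library, and the difference was 0.67 ± 0.22 (unadjusted p = 0.00713, adjusted p = 0.629), again higher in 5 of 5 mice.

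Aldoa (aldolase A, which splits fructose bisphosphate) was at 1475 to 2054 CPM (median 1699.8) in GFP+-RPE and 787, 1273, 1359.8, 1366 and 1455 CPM in peripheral GFP- RPE. These ranges did not overlap, as was also true, in that direction, of Mdh1 and Idh3a, so 3 of 44 members against 0.624% of all genes (0 members against 0.663% in the other direction). The members are abundant, and the share without overlap among genes of like abundance was not computed in any comparison. The lowest library for Aldoa, of mouse 5, stood apart from the other peripheral GFP- libraries. The difference was 0.50 ± 0.19 (unadjusted p = 0.0188, adjusted p = 0.733).

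Eno1 (enolase 1) was at 1393 to 2222 CPM (median 1662) in GFP+-RPE and 674, 902, 969.9, 1414 and 2021 CPM in peripheral GFP- RPE. Its highest peripheral value came from mouse 7, the only mouse in which GFP+ cells were lower, and the difference was 0.59 ± 0.25 (unadjusted p = 0.0321). Reads of its retrocopy Eno1b are listed apart in the table, and how reads of such near-identical copies were divided is not known. Pgam1 (phosphoglycerate mutase) was at 114 to 241 CPM (median 181) in GFP+-RPE and 71.0, 86.0, 118, 140.3 and 181 CPM in peripheral GFP- RPE, a difference of 0.60 ± 0.26 (unadjusted p = 0.0348) with overlapping groups. Ldhb (the lactate dehydrogenase subunit typical of lactate-using tissues) was at 723 to 1149 CPM (median 888) in GFP+-RPE and 333, 600.2, 688, 767 and 895 CPM in peripheral GFP- RPE, a difference of 0.52 ± 0.23 (unadjusted p = 0.0369, adjusted p = 0.832).

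**Figure D3:**
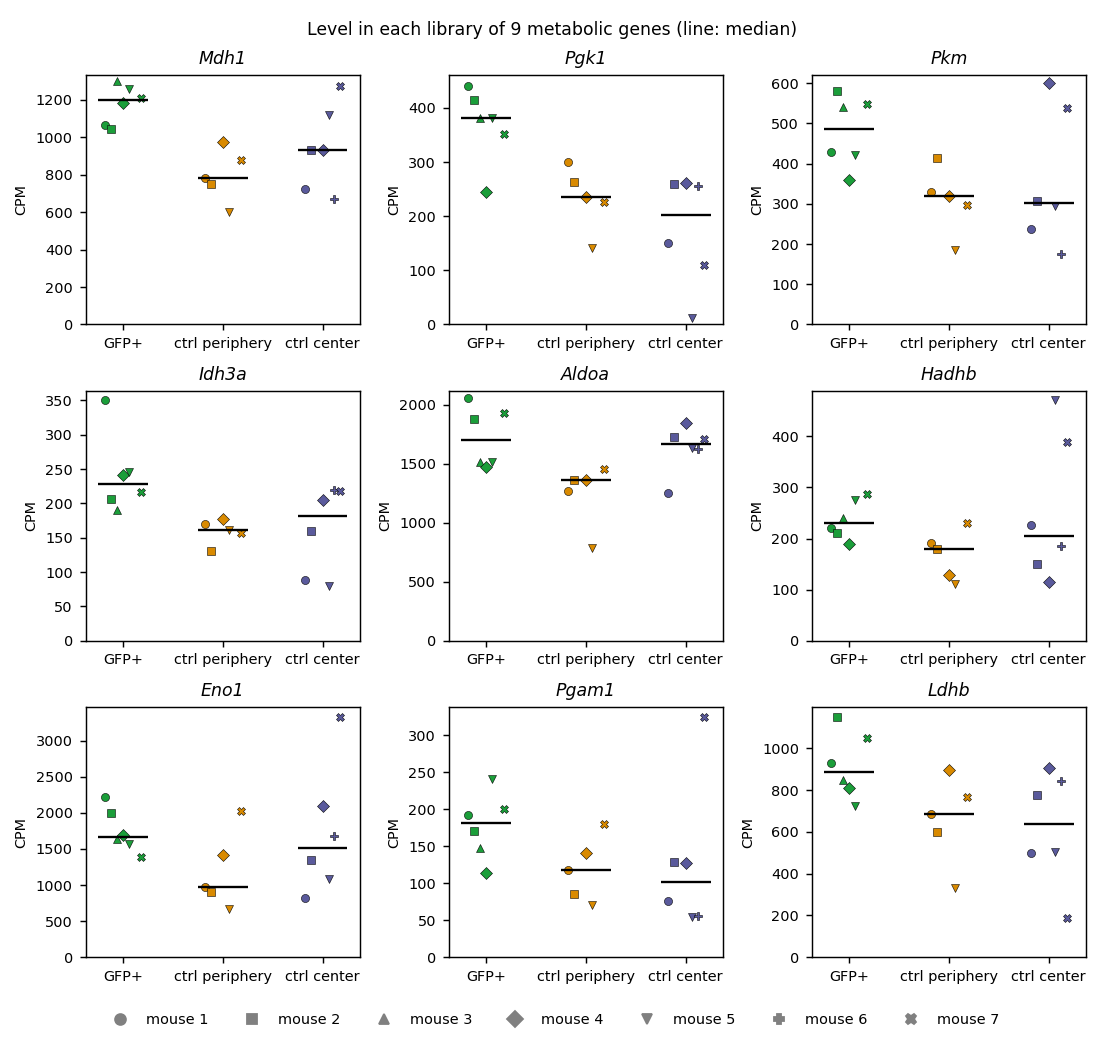
Level in CPM (linear axis from 0) of the 9 members with an unadjusted p under 0.05 between GFP+ and ctrl periphery, in each of 17 libraries; shapes are mice, lines are medians. Ranges of GFP+ and ctrl periphery libraries are separate for Mdh1, Idh3a and Aldoa, and the ctrl center overlaps GFP+ for all 9.

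The other glycolysis members between these groups had fitted log2 differences from -0.38 (Pfkm) to 0.92 (Aldoc), with Gapdh (the dehydrogenase that makes glycolytic NADH) at 0.17 ± 0.18, Tpi1 (triosephosphate isomerase) at 0.45 ± 0.22 and Gpi1 (glucose-6-phosphate isomerase) at 0.50 ± 0.25. Hk1 (hexokinase 1, which traps glucose in the cell) was at 8.49 to 109 CPM (median 64.0) in GFP+-RPE and 61.3, 64.9, 79.6, 82.7 and 88.6 CPM in peripheral GFP- RPE. The GFP+ library of mouse 7 was the lowest of these 11 libraries, and the fitted difference of -0.33 ± 0.46 had a standard error larger than itself. Hk2 (the inducible hexokinase) was at 0 to 8.77 CPM (median 0.698) in GFP+-RPE, 0, 0, 0.144, 0.947 and 6.35 CPM in peripheral GFP- RPE and 0 to 7.98 CPM (median 0.547) in central GFP- RPE, with 0 counts in 3 of 6 GFP+ libraries and in 2 of 5 peripheral GFP- libraries. A count of 0 in a library allows up to 3. Ldha (the subunit typical of lactate-producing tissues) was at 46.2 to 139 CPM (median 49.7) in GFP+-RPE, 55.7, 62.0, 65.2, 70.5 and 73.7 CPM in peripheral GFP- RPE and 19.4 to 151 CPM (median 77.2) in central GFP- RPE. Mice 1 and 2 supplied the high GFP+ values of Ldha, and no comparison had an unadjusted p under 0.05.

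In the TCA cycle, Mdh1 (cytosolic malate dehydrogenase, part of the malate-aspartate shuttle that carries reducing power into mitochondria) had the smallest p of the 44 in this comparison. It was at 1045 to 1300.2 CPM (median 1197) in GFP+-RPE. In peripheral GFP- RPE it was at 603, 748, 785, 879 and 973 CPM. All 6 GFP+ libraries lay above all 5 peripheral GFP- libraries, with a difference of 0.59 ± 0.17 (unadjusted p = 0.00288, adjusted p = 0.555), higher in 5 of 5 mice. Exons of Mdh1 and Wdpcp overlap on opposite strands, and whether counting used strand is not stated. Central libraries were at 672 to 1273 CPM (median 931), overlapping both other groups. In GRCm38 with the GENCODE M21 annotation, Mdh1 lies at chr11:21556787-21572367 on the minus strand, Idh3a lies at chr9:54586334-54604661 on the plus strand, Aldoa lies at chr7:126795234-126800751 on the minus strand, Pgk1 lies at chrX:106187100-106203699 on the plus strand and Pkm lies at chr9:59656368-59679375 on the plus strand.

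Idh3a (a catalytic subunit of the NAD-dependent isocitrate dehydrogenase) was at 190.1 to 350.5 CPM (median 229) in GFP+-RPE and 131, 157, 161, 169 and 177 CPM in peripheral GFP- RPE. The library of mouse 1 was the highest of the GFP+ group, and the groups did not overlap; the difference was 0.62 ± 0.20 (unadjusted p = 0.00733, adjusted p = 0.632). The fitted values of the other subunits of this enzyme were -0.35 ± 0.27 for Idh3b and 0.59 ± 0.43 for Idh3g, neither at an unadjusted p under 0.05. Idh1, which makes cytosolic NADPH, was higher in 5 of 5 mice without passing (0.76 ± 0.50, unadjusted p = 0.146). The entry enzyme Cs (citrate synthase) was at 0.32 ± 0.47, and Ogdh (of the oxoglutarate dehydrogenase complex) was the lowest of the 12 at -0.48 ± 0.25 (unadjusted p = 0.0790). Sucla2 and Suclg1 (subunits of succinyl-CoA ligase), Fh1 (fumarase) and Mdh2 (mitochondrial malate dehydrogenase) lay between 0.19 and 0.38, and Idh2 (the mitochondrial NADP-dependent form) at 1.07 ± 0.98.

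In the pyruvate dehydrogenase group no member had an unadjusted p under 0.05. The subunit genes Pdha1, Pdhb and Dlat were at 0.57 ± 0.55, 0.41 ± 0.30 and 0.18 ± 0.47, and the kinases Pdk1 and Pdk2 at 1.53 ± 1.60 and 0.48 ± 0.37. Pdk4 (the kinase induced by fasting and fatty acids) was lower in GFP+ cells of each mouse that gave all 3 groups, without passing the test. It was at 0 to 9.51 CPM (median 0.266) in GFP+-RPE, where 5 of 6 libraries were below 1 CPM and mouse 3 alone reached 9.51. In peripheral GFP- RPE it was at 0.363, 0.989, 1.27, 5.49 and 8.25 CPM, and in central GFP- RPE at 0.330 to 26.3 CPM (median 5.81). GFP+ cells were lower in 5 of 5 mice against each of the other groups, with fitted differences of -0.86 ± 1.55 and -2.27 ± 1.58 and unadjusted p of 0.587 and 0.168. The size depended on single libraries. Without the GFP+ library of mouse 3, which had no control library of the same mouse, the differences were -3.62 (unadjusted p = 0.0254) and -4.97 (unadjusted p = 0.0117), with adjusted p of 0.795 and 0.522. Other libraries moved it the other way. Without the peripheral GFP- library of mouse 1 the difference against the periphery was -0.15 (unadjusted p = 0.932). Without the central library of mouse 4 the difference against the center was -1.55 (unadjusted p = 0.346).

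Among the genes of fatty acid oxidation, Hadhb (the thiolase subunit of the mitochondrial trifunctional protein) was at 189 to 288 CPM (median 229.9) in GFP+-RPE and 111, 129, 179, 192 and 231 CPM in peripheral GFP- RPE. The difference was 0.52 ± 0.22 (unadjusted p = 0.0307, adjusted p = 0.801), with overlapping groups and the GFP+ cells higher in 5 of 5 mice. Its partner subunit Hadha, encoded head to head with it on chromosome 5, was at 0.10 ± 0.26. Cpt1a, which commits long-chain fatty acids to the mitochondrion, was at 19.2 to 101 CPM (median 70.6) in GFP+-RPE, 36.2, 39.8, 56.2, 56.9 and 79.9 CPM in peripheral GFP- RPE and 0.554 to 99.2 CPM (median 71.1) in central GFP- RPE. These groups overlapped throughout. The acyl-CoA dehydrogenases Acadvl, Acadm and Acadl (very long, medium and long chain) had differences of 0.57 ± 0.29, 0.65 ± 0.38 and -0.08 ± 0.20, Cpt2 of -0.36 ± 0.41 and Acaa2 of 0.48 ± 0.29. Bdh1 (the dehydrogenase that makes 3-hydroxybutyrate) was at 0 to 13.5 CPM (median 2.98) in GFP+-RPE, at 0, 0, 1.27, 3.68 and 5.74 CPM in peripheral GFP- RPE and at 0 to 0.673 CPM in the center, where 4 of 6 libraries had 0 counts, so it was tested against the periphery only (1.09 ± 1.82).

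**Figure D4:**
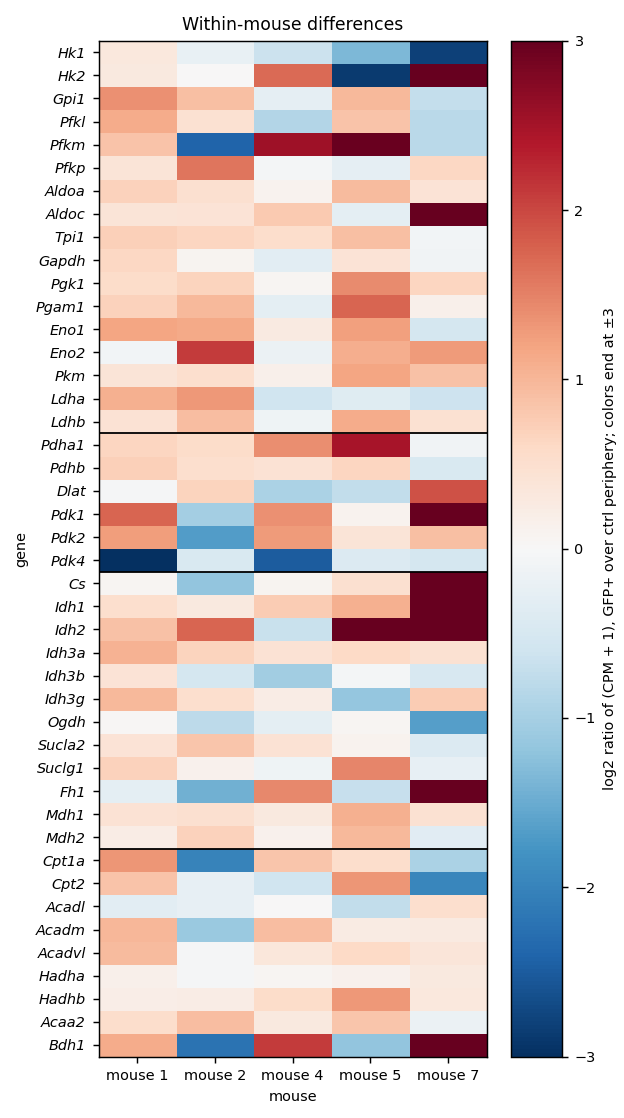
Log2 ratio of CPM + 1 of GFP+ over ctrl periphery (color, ends at ± 3) for each of 44 genes (rows, grouped by pathway with lines between) in the 5 mice (columns) with both libraries. Mouse 1 was higher in 39 of 44 genes and mouse 7 in 25 of 44.

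The number of higher members varied between mice. Within mouse, GFP+ cells were above peripheral GFP- cells in 39 of 44 members in mouse 1, 27 in mouse 2, 28 in mouse 4, 32 in mouse 5 and 25 in mouse 7, with median log2 ratios of CPM + 1 of 0.59, 0.43, 0.14, 0.60 and 0.30. The same shares over all genes were not computed, for single mice or for genes higher in 5 of 5 mice. Of the 9 genes above, 8 had their lowest peripheral GFP- value in mouse 5 (Idh3a had it in mouse 2), and that library had 30.4% mitochondrially encoded counts, the highest of its group. Without it, 5 of the 9 were left at an unadjusted p under 0.05, where 2.85% of all genes tested were higher, and the members' median was 0.38. Without the peripheral GFP- library of mouse 7, 12 members were higher at that level, where 3.95% of all genes tested were. Other values moved with this comparison beside the mitochondrial share given above: the macrophage marker list (9 genes, of which 6 were at or under 3 counts in every library) summed to 38.1 to 111 CPM in GFP+-RPE and 105 to 146 CPM in peripheral GFP- RPE, nearly all of it Csf1r. Photoreceptor markers (18 genes, 4 at or under that floor everywhere) summed to 88.0 to 166 and 108 to 174 CPM. The part of these markers in the result was not tested.

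For reference, the 250 bases before the start of Mdh1, Pgk1, Pgam1, Ldhb and Hadhb are shown, which are all of the 9 members with higher values at an unadjusted p under 0.05 between GFP+-RPE and peripheral GFP- RPE that have a single start in the RefSeq table (GRCm38.p6). Capitals mark ACGTG on either strand, the core recognized by hypoxia-inducible factors, which is also part of the CACGTG E-box.
Mdh1, chr11:21571935-21572184, minus strand: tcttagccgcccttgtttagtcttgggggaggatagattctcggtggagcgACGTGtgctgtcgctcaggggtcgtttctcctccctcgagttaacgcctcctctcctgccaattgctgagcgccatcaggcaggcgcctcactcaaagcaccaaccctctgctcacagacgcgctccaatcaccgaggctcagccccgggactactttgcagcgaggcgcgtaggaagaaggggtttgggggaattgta
Pgk1, chrX:106186850-106187099, plus strand: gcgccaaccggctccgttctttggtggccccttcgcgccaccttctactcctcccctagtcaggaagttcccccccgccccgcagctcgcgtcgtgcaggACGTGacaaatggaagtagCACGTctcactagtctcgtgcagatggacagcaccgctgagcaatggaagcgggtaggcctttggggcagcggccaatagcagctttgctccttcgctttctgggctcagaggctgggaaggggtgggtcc
Pgam1, chr19:41911621-41911870, plus strand: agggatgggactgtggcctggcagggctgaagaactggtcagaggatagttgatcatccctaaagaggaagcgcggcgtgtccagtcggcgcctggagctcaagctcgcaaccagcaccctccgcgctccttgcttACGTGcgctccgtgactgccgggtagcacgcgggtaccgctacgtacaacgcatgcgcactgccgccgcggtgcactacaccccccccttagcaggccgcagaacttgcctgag
Ldhb, chr6:142507958-142508207, minus strand: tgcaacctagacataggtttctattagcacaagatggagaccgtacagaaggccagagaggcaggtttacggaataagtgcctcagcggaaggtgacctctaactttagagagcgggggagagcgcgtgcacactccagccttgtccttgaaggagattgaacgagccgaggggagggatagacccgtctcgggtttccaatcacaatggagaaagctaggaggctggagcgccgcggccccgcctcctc
Hadhb, chr5:30155003-30155252, plus strand: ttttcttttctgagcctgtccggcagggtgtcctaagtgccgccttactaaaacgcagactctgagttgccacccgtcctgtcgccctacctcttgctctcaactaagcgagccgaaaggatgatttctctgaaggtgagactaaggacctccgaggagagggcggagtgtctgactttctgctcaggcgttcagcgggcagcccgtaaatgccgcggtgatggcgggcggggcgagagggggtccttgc
These letters are in the windows of Mdh1, Pgk1 and Pgam1 and in neither of the last pair. Of the 44 members, 42 had a promoter in the table (Idh3a and Acaa2 did not), with 62 starts. ACGTG was found in 20 of these 62 (32.3%), in at least 1 start of 13 members, against 16.6% of all 32851 promoters, CACGTG in 9.68% against 6.02%, and GGGCGG, the GC box letters, in 48.4% against 32.7%. AAGGTCA, the letters of an estrogen-related receptor half-site, was in 3.23% against 4.08%. Both strands were searched, and windows of starts close together share bases. Ogdh has several starts and had ACGTG in each, so these shares count some genes repeatedly. The share of all genes with the letters in at least 1 start was not computed.

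Against central GFP- RPE, the members of GFP+-RPE were balanced in sign. Of 43 members tested, 21 were higher, with a median of -0.03 against 0.00 over 9286 genes. The pathway medians were 0.07 for glycolysis and lactate, 0.35 for pyruvate dehydrogenase and its kinases, -0.06 for the TCA cycle and -0.12 for fatty acid oxidation. edgeR called 0 members (0.0431% of all genes), as did DESeq2, and 3 of 43 members were higher at an unadjusted p under 0.05 and 0 lower, where 2.14% of all genes were higher and 3.66% lower (5.67% and 10.5% of the 1534 genes at or above the members' median abundance). DESeq2 had 4 members higher and 0 lower at that level, where 3.70% of the 16656 genes it tested were higher and 6.32% lower. Photoreceptor markers summed to 122 to 304 CPM and macrophage markers to 68.4 to 116 CPM in the center, and their part in the comparisons with the center was not tested.

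The 3 members at that level were all in the glycolysis list. Pfkl (phosphofructokinase, liver type, at the committed step of glycolysis) was at 82.3 to 175 CPM (median 129.9) in GFP+-RPE, 22.5 to 89.9 CPM (median 61.4) in central GFP- RPE and 76.3, 80.0, 88.4, 151 and 230.2 CPM in peripheral GFP- RPE. It was higher in GFP+-RPE than in the center by 1.10 ± 0.38 (unadjusted p = 0.0107, adjusted p = 0.421) and in peripheral GFP- RPE than in the center by 1.04 ± 0.47 (unadjusted p = 0.0414). Its paralog Pfkp (the platelet type) was at 47.9 to 163 CPM (median 97.3) in GFP+-RPE and 3.33 to 61.0 CPM (median 35.4) in the center. The groups overlapped, with the 2 lowest central values in mice 5 and 7, and the difference was 1.56 ± 0.63 (unadjusted p = 0.0239, adjusted p = 0.649). Pgk1 was at 11.5 to 262 CPM (median 203) in the center, 11.5 CPM being mouse 5, and the fitted difference was 1.06 ± 0.45 (unadjusted p = 0.0301, adjusted p = 0.712).

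Aldoc (aldolase C, the neural form) was the 1 member with ranges that did not overlap between these groups, where 0.862% of all genes were higher and 0.269% lower. It was at 39.3 to 121 CPM (median 62.5) in GFP+-RPE, 0 to 29.1 CPM (median 23.9) in the center and 4.84, 25.2, 41.3, 48.3 and 61.0 CPM in peripheral GFP- RPE. The 2 central libraries at 0 counts (mice 5 and 7) also had the largest mitochondrial shares, 47.3% and 37.0%, and the 2 lowest numbers of genes at 10 counts or more (5392 and 6430). The difference of 1.99 ± 1.04 came with an unadjusted p of 0.0735. Of the members outside glycolysis, Pdk2 was closest to passing, at 0.99 ± 0.48 (unadjusted p = 0.0561), and Suclg1 was higher in 5 of 5 mice at 0.35 ± 0.31. In glycolysis, Tpi1 was also higher in 5 of 5 mice, at 0.66 ± 0.45.

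Between peripheral and central GFP- RPE, 16 of 43 members were higher in the periphery and the median was -0.27, against 0.01 over 9535 genes. Medians were -0.16 for glycolysis and lactate, -0.52 for pyruvate dehydrogenase and its kinases, -0.25 for the TCA cycle and -0.43 for fatty acid oxidation and ketone bodies. No gene was called by edgeR (0% of all genes, with 98 genes higher and 159 lower at an unadjusted p under 0.05), while DESeq2 called 29 genes, none of them a member. One member each way had an unadjusted p under 0.05, where 1.03% of genes were higher and 1.67% lower (1.17% and 7.22% of the 1620 genes at or above the members' median abundance), and 0 members had ranges that did not overlap, where 0.64% of genes were higher and 0.115% lower. The 1 higher member was Pfkl, above. The 1 lower member was Acadm (medium-chain acyl-CoA dehydrogenase), at 36.7, 38.4, 43.2, 46.3 and 48.1 CPM in peripheral GFP- RPE and 22.0 to 193 CPM (median 95.9) in central GFP- RPE, a difference of -1.22 ± 0.53 (unadjusted p = 0.0336). The peripheral values were close to each other and the central ones spread around them, with 2 of the 6 central libraries below the highest peripheral value. Both results lay close to the p limit and did not hold in every fit. With each of the 11 libraries left out in turn, the unadjusted p was no longer under 0.05 in 7 fits for Acadm and in 5 for Pfkl. The Acadm difference ran from -1.42 to -0.87, the last without mouse 7's central library. That of Pfkl ran from 0.70 to 1.19, the first without mouse 7's peripheral library. Acaa2 (mitochondrial 3-ketoacyl-CoA thiolase) and Pdha1 were lower in the periphery of 5 of 5 mice, at -0.57 ± 0.36 and -0.89 ± 0.66, and Aldoa was at -0.46 ± 0.22 (unadjusted p = 0.0526).

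For the other genes described above, the central libraries spread widely and overlapped GFP+-RPE. Pkm was at 175 to 599.9 CPM (median 302) in the center, Ldhb at 186 to 907 CPM (median 639.6), and Idh3a at 80.4 to 219.8 CPM (median 182). Eno1 was at 823 to 3332 CPM (median 1508), Pgam1 at 53.8 to 325 CPM (median 102) and Aldoa at 1256 to 1849 CPM (median 1670.4). Hadhb was at 114 to 471 CPM (median 206) and Hk1 at 16.4 to 86.6 CPM (median 78.1). Of these, the fitted differences of GFP+-RPE against the center were largest for Idh3a (0.54 ± 0.28, unadjusted p = 0.0753) and Ldhb (0.53 ± 0.29, unadjusted p = 0.0887).

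Levels were also set per kilobase of the union of a gene's annotated exons so that genes could be ranked. Aldoa, Ldhb and Mdh1 held the first 3 places of the 44 in every group; in GFP+-RPE they averaged 594 ± 87.7, 585 ± 101 and 458 ± 39.8 CPM per kb, followed by Eno1 at 326 ± 56.4 and Gapdh at 261 ± 44.7. The first 2 did not differ beyond their spread. Acaa2, a fatty acid oxidation enzyme, held the sixth place in all 3 groups. These places depend on the length used. Eno1 has 5379 bases in the union of exons and 2027 in its longest transcript, Ldhb 1570 and 1304, and Acaa2 1516 by both. Places by the longest transcript are not given.

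Where a step is served by several genes, their shares of the summed CPM per kilobase were computed and are given as mean ± SD in GFP+-RPE, peripheral GFP- RPE and central GFP- RPE, in that order and with no test. Ldhb made up 96.3% ± 1.78, 95.1% ± 1.81 and 92.8% ± 6.25 of the lactate dehydrogenase pair, with Ldha highest in the central library of mouse 7, at 18.5%. Aldoa was 96.7% ± 1.14, 97.2% ± 1.94 and 99.1% ± 0.751 of the aldolases, and Aldoc took 2.26 to 5.29% in GFP+-RPE against 0 to 1.75% in the center. Eno1 was 97.6% or more of the enolase pair in every library. Hk1 was 88.6% ± 23.7, 97.5% ± 4.41 and 96.9% ± 4.78 of the hexokinase pair, where 1 GFP+ library (mouse 7) stood at 40.4%. Pfkl was 58.7% ± 13.7, 59.3% ± 17.6 and 57.7% ± 29.2 of the phosphofructokinases. Among the kinases of pyruvate dehydrogenase, Pdk2 was 94.2% ± 5.78, 92.1% ± 7.60 and 78.7% ± 15.4. Pdk4 was 2.41% ± 5.19, 6.30% ± 6.62 and 17.6% ± 15.9, the central libraries running from 0.457 to 39.1% Pdk4. Counting length by the longest transcript moved the Ldhb share to 94.4% in GFP+-RPE and 92.8% in the periphery. In GFP+-RPE it also moved the mean Aldoc share from 3.34% to 2.11% and the Aldoa share to 97.9%.

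**Figure D5:**
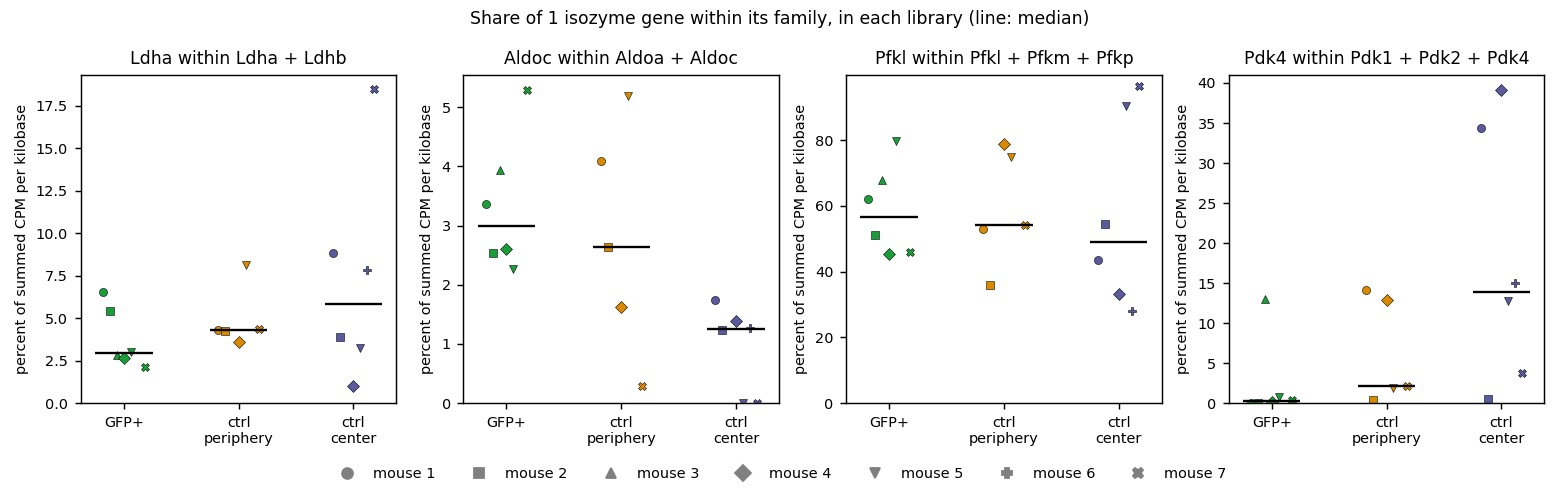
Percent of the summed CPM per kilobase of the listed genes of an enzyme family that came from 1 gene, in each of 17 libraries. Shapes are mice and lines are medians. Pdk3 is left out of the Pdk family, and lengths are unions of exons. Ldha stays under 9% except in 1 central library (18.5%), Aldoc is separate between GFP+ (2.26 to 5.29%) and ctrl center (0 to 1.75%), Pfkl spans 28.0 to 96.5%, and Pdk4 ranges up to 39.1% in the center.

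Another 89 genes of these pathways were looked at as lists. None was called by edgeR in any comparison. Against the center, 65 were tested (median 0.17), and at an unadjusted p under 0.05, 2 were lower in GFP+-RPE and 0 higher. Over all genes tested 3.66% were lower and 2.14% higher, so 2 of 65 is near the share of all genes. The 2 genes were Me1 and Slc16a1. Me1 (cytosolic malic enzyme) was at 182 to 270.4 CPM in GFP+-RPE and 259 to 572 CPM in the center, and Slc16a1 (the lactate carrier MCT1) at 836 to 1421 and 1103 to 1394 CPM. Against peripheral GFP- RPE, 67 were tested (median 0.12), 4 were higher at that level and 1 lower, where 2.75% of all genes were higher and 2.83% lower. Pdk3, another pyruvate dehydrogenase kinase, was at 26.7 to 137 CPM in GFP+-RPE and 6.89 to 28.3 CPM in the periphery, a difference of 1.96 ± 0.54, and Pgm1 (phosphoglucomutase) and Mpc2 (of the mitochondrial pyruvate carrier) were at 1.73 ± 0.70 and 0.73 ± 0.30. The others, named after their values were seen, were Me3 (a mitochondrial malic enzyme), at 1.08 ± 0.45, and Acsl3 (an acyl-CoA synthetase), the 1 lower gene, at -1.99 ± 0.85. In the list of further pyruvate and TCA cycle genes, 19 of 21 were higher in GFP+-RPE, with a median of 0.25. Further fatty acid oxidation genes were at 15 of 28 with a median of 0.05. Further glycolysis and gluconeogenesis genes were at 4 of 8 with a median of 0.02, unlike the glycolysis members. Glucose and lactate transport genes were at 3 of 5 (median 0.09) and further ketone body genes at 4 of 5 (median 0.19). Between periphery and center, 67 were tested, and at that level 1 was lower in the periphery and 0 higher, where 1.67% of all genes were lower and 1.03% higher. The 1 gene was Eci1 (an enoyl-CoA isomerase), with a difference of -0.51 ± 0.23.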

How the data were processed

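The data were counts of reads per gene in 17 SMART-Seq libraries of hand-picked RPE cells. Groups and mice came from the sample labels; the labels and the study's methods differ on how many cells made a pool. The estimated counts the authors deposited are unnormalized whole numbers, 1 row per gene symbol, and the submitters' processing notes name fastp, Salmon and the build GRCm38.p6, with no versions. The use of strand is not given in the sources used here, and exons of 10 of the 44 members overlap those of another listed gene on the other strand. Some results are not reported here.

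Counts were taken as deposited. Library sizes were scaled by TMM (edgeR 4.0.16 in R 4.3.3), and CPM are relative to these over all 17 libraries. Each of the 3 comparisons was fitted on its own groups with edgeR's quasi-likelihood test after filterByExpr, with Benjamini-Hochberg adjustment over all genes tested. A call needed both an adjusted p below 0.01 and a log2 fold change beyond 1 in either direction; DESeq2 1.42.0 was an alternative. The edgeR test of each comparison was also run on simulated counts. The floor for a gene without reads was taken as 3 counts and covers counting error alone. Same-numbered libraries came from the same mouse; the correlation of their deviations from group means was -0.0157 to 0.101 over 15 pairs. The libraries of a group come from separate mice, and p-values measure the spread between these pools. Gene positions and lengths were those of GENCODE M21, where Aldoa, with more than 1 record, took the one with the most transcripts. Promoters were from RefSeq. Per-library values are given for 8 chosen members (Hk1, Hk2, Pkm, Ldha, Ldhb, Pdk4, Cpt1a and Bdh1) and for each member that was called, had ranges that did not overlap or an unadjusted p under 0.05 in a comparison; among the other pathway genes, up to 3 per comparison with the smallest unadjusted p under 0.05. Members and lists were chosen with earlier results of these data known.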

Additional observations from a re-analysis of the deposited data

Results flagged for a closer look

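Of 81 groups of values checked for a library far from the rest (each named member's CPM, pathway sums and library measures in each group), 8 were flagged, where chance flags about 1 in 20, or 4.05. In GFP+-RPE, Hk2 stood at 8.774 CPM in mouse 7 (next 2.717), Pdk4 at 9.51 CPM in mouse 3 (next 0.704) and Idh3a at 350.5 CPM in mouse 1 (next 245.3). In peripheral GFP- RPE, mouse 5 was high in Hk2 at 6.354 CPM (next 0.9473) and low in Aldoa at 786.9 CPM (next 1273), and mouse 7 was low in summed photoreceptor markers at 108.1 CPM (next 156.7). In central GFP- RPE, Aldoa was low in mouse 1 at 1256 CPM (next 1629) and Pgam1 high in mouse 7 at 324.5 CPM (next 128.3).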

How the results depend on the processing

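No member was called under any alternative run: DESeq2, other size factors, other filters, mitochondrial genes left out, all groups in one fit, the run of animal numbers as covariate, robust estimation, thinning, or 1 library left out. The 4 pathway medians of GFP+-RPE against peripheral GFP- RPE stayed positive under every alternative. The TCA cycle median against the center was positive with no filter (0.049), the run covariate (0.038), the block (0.25) and 6 libraries left out in turn, and the glycolysis median between periphery and center was positive with the block (0.14) and without the central library of mouse 6 (0.053). The count of members at an unadjusted p under 0.05 in GFP+-RPE against peripheral GFP- RPE was 4 with all 17 libraries in one fit and 5 to 12 with 1 library left out (5 without the peripheral GFP- library of mouse 5); against the center it was 6 with no filter, 5 with all 17 libraries and 3 to 5 with 1 left out (5 without the central library of mouse 2). Between periphery and center it was 1 by DESeq2, 0 with no filter and with the run covariate, 4 with all 17 libraries and 1 to 4 with 1 left out (4 without the peripheral library of mouse 7 or the central one of mouse 4, 1 without the peripheral ones of mice 1, 2, 4 or 5 or the central ones of mice 1 or 6). Of all genes tested with all 17 libraries in one fit, 1.13% were higher at that level against the periphery and 3.27% against the center. With no filter, 4.73% were higher against the center. Genes called against the center numbered 8 at an adjusted p under 0.05 with any fold, 206 by DESeq2, 2 at 10 counts in 5 libraries, 1 with the run covariate and 1 to 3 with 1 library left out (1 or 2 without GFP+ libraries of mice 2, 3, 4, 5 or 7 or central ones of mice 1, 2, 6 or 7). Against the periphery they numbered 66 by DESeq2, 0 with all 17 libraries, 1 with the run covariate and 0 to 5 with 1 left out (0 to 2 without any library but the GFP+ one of mouse 3 or the peripheral one of mouse 4), and between periphery and center 29 by DESeq2. The cause of these moves was not tested.

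With the mouse as a replicate block, 60 genes were called against the center and 0 against the periphery. In the latter, 12 members were higher at an unadjusted p under 0.05 and 0 lower, where 3.32% of all genes tested were higher and 3.13% lower. Under the block the median over all genes was 0.58 against the center, 0.48 between periphery and center and 0.07 against the periphery, and fold changes under it are to be read relative to those medians. Some signs of named members turned. Against the center, Eno1 was 0.080 with no filter, 0.12 with the block and 0.050 with the run covariate, Ldha 0.085 with no filter and 0.38 with the block, and Cpt1a 0.050 with no filter and 0.32 with the block. Against the periphery, Cpt1a was -0.0045 with the block. Between periphery and center, Idh3a was 0.0065 with no filter and 0.11 with the block, Ldha 0.20 and Cpt1a 0.11 with the block.

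Leaving out 1 library also turned signs. Against the center, the ranges were -0.015 to 0.090 for Aldoa, -0.37 to 0.16 for Cpt1a, -0.14 to 0.27 for Eno1, -0.41 to 0.094 for Hadhb, -0.34 to 0.13 for Hk1, -1.29 to 1.35 for Hk2 and -0.27 to 0.22 for Ldha. Against the periphery, Pfkl ran from -0.046 to 0.41. Between periphery and center, Idh3a ran from -0.18 to 0.056, Ldhb from -0.15 to 0.21 and Pgam1 from -0.36 to 0.38. Hk2, Pdk4 and Bdh1 had 0 or few counts in several libraries, so their values rest on little depth.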
